A study of Homo sapiens with 14 samples.

Results

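TRIM29 and 9 genes of the cornified envelope and the desmosome (IVL, TGM1, EVPL, PPL, DSP, JUP, DSG3, PKP1 and PKP3) were followed in Hep3BTAp73β cells with doxycycline (Dox+) and without it (Dox−). The 10 genes, of 19775 with a probe set that names a single gene, were taken by symbol, and 15 probe sets measured them. Each gene is given by the brightest of its probe sets (largest mean of the 14 arrays), with the others beside it. These genes were selected on the Dox+ and Dox− values of the same 14 arrays, so those values are a description and carry no test. Hep3B is a hepatocellular carcinoma cell line. It carries here TAp73β, the transcriptionally active p73 isoform, behind the promoter of a doxycycline-switched plasmid (pT-REx-DEST30), together with a plasmid for the Tet repressor. Resistant colonies were picked after blasticidin and G418 selection. Dox+ and Dox− cultures both held these plasmids and differed in doxycycline (1 μg/mL), which lasted 12, 24 or 48 h. Each group had 2 cultures after 12 h, 2 after 24 h and 3 after 48 h, and every culture was run on its own Affymetrix array. The labels number them as biological replicates and say no more about how they were separated.

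The cornified envelope is the cross-linked protein shell that replaces the membrane of a terminally differentiated keratinocyte. Plakins and involucrin line the membrane first, and transglutaminases then cross-link them. Desmosomes are the junctions that tie the keratin filaments of neighbouring epithelial cells together through cadherins, armadillo proteins and desmoplakin. Simple epithelia such as hepatocytes have desmosomes too, but make no cornified envelope. TRIM29 is a tripartite motif protein without a RING finger that is abundant in stratified epithelia. p73 and its relative p63, the regulator of stratified epithelia, bind the same DNA element.

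The array medians were 5.15 to 5.28 on the log2 scale, which is the scale of every level below. The switched gene was checked first. TP73 read 7.96 and 7.89 in Dox+ against 5.99 and 6.08 in Dox− cells at 12 h, 8.14 and 8.30 against 5.82 and 6.08 at 24 h, and 7.95, 7.92 and 7.90 against 5.94, 6.04 and 5.90 at 48 h. The Dox+ arrays lay above the Dox− arrays at each time. All 11 measured hepatocyte markers lay above the median gene on all 14 arrays, whereas 1 of 6 keratinocyte markers did. A transcript that differs in RNA from whole cultures may come from a different number of cells that make it or from a different amount per cell, and these cannot be told apart.

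TRIM29 had the largest difference of the 10 genes. At 12 h it read 8.58 and 7.96 in Dox+ cells, against 6.74 and 7.0 in Dox− cells. At 24 h it read 9.66 and 9.71 in Dox+ cells, against 6.26 and 6.63 in Dox− cells. At 48 h it read 9.34, 9.48 and 9.72 in Dox+ cells, against 6.46, 6.41 and 6.50 in Dox− cells. Every Dox+ array was above every Dox− array of its time. The difference between Dox+ and Dox− cells was 1.40 ± 0.22, 3.25 ± 0.15 and 3.05 ± 0.09 (log2, SE, n = 2, 2 and 3 each). These were 2.64-fold, 9.49-fold and 8.3-fold, in the order of the times. Each SE here and below is limma's, which also draws on the spread of all genes. In the order of the levels, the Dox+ arrays of 24 h and 48 h overlapped at the top, and those of 12 h came next. The Dox− arrays of 12 h followed, and at the bottom the range of the 48 h Dox− arrays lay inside that of the 24 h Dox− arrays. Dox+ cells thus read 1.42 more at 24 h than at 12 h, and 0.18 less at 48 h than at 24 h, the last a difference within their ranges.

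The probe sets of TRIM29 did not read alike. On the second brightest the Dox+ arrays read 5.66 and 6.16 (12 h), 6.75 and 6.60 (24 h), and 6.63, 6.73 and 6.72 (48 h). The Dox− arrays of this probe set read 5.20 and 5.38 (12 h), 4.95 and 5.40 (24 h), and 5.61, 5.18 and 5.08 (48 h). The groups did not overlap at any time on it, and the differences were 0.62, 1.50 and 1.40 (SE 0.20, 0.17 and 0.12). On the third they were −0.04, −0.07 and −0.13 (SE 0.16, 0.13 and 0.08), and all readings lay between 5.6 and 5.93 with the groups overlapping at each time. What transcripts each of these probe sets detects was not tested.

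**Figure D1:**
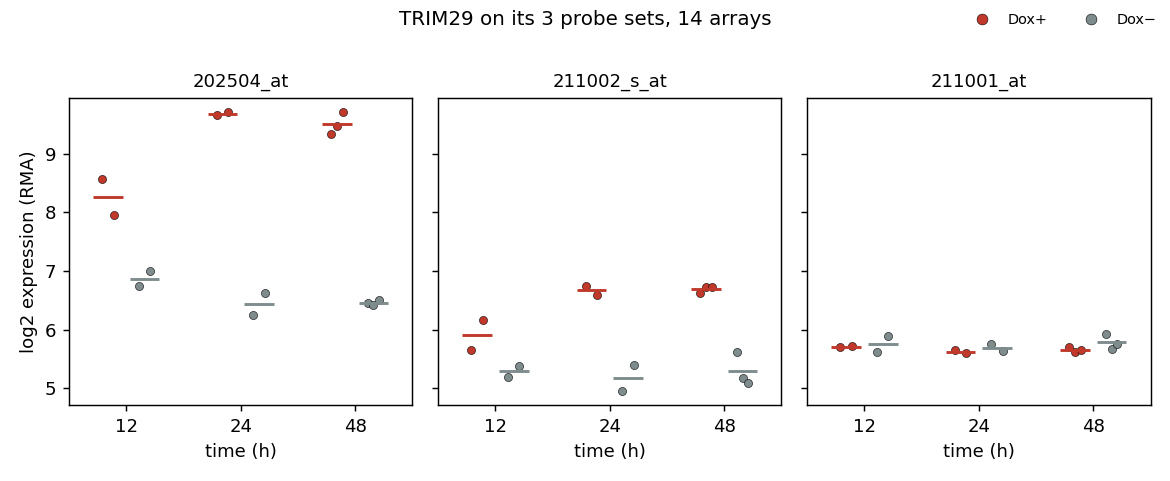
TRIM29 on its 3 probe sets. The y axis gives the deposited log2 RMA value and the x axis the time in hours; each point is 1 array, red for Dox+ and grey for Dox−, and each short line is the mean of a group. The Dox+ arrays lie above the Dox− arrays in the left and middle panels at every time, and the groups overlap in the right panel.

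PPL encodes periplakin, which with envoplakin forms the scaffold under the membrane on which the envelope is built. PPL read 9.92 and 10.34 in Dox+ cells against 9.41 and 9.22 in Dox− cells at 12 h. At 24 h it read 10.72 and 10.70 in Dox+ cells against 9.40 and 9.53 in Dox− cells. At 48 h it read 10.45, 10.47 and 10.67 in Dox+ cells against 8.90, 8.97 and 8.95 in Dox− cells. The groups did not overlap at any time, and the differences were 0.81 ± 0.18, 1.25 ± 0.13 and 1.59 ± 0.07 (log2, SE), or 1.76-fold, 2.37-fold and 3.01-fold. The larger difference at 48 h than at 24 h went with lower Dox− arrays, since the Dox+ mean was 10.5 at 48 h and 10.7 at 24 h, while the Dox− mean was 8.94 and 9.46. EVPL, which encodes envoplakin, the partner of periplakin, did not have this pattern, and its mean level (4.72) lay below the median gene (6.49). EVPL read 4.54 and 4.70 in Dox+ cells against 5.05 and 5.05 in Dox− cells at 12 h, where the Dox+ arrays were the lower ones. Its differences were −0.43 ± 0.15, 0.12 ± 0.14 and 0.11 ± 0.06, and its groups overlapped at 24 h and 48 h.

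IVL encodes involucrin, an envelope precursor laid down early, and TGM1 the membrane-bound transglutaminase that cross-links it. IVL read 4.06 to 4.54 on the 7 Dox+ arrays and 4.17 to 5.00 on the 7 Dox− arrays. Its differences were −0.34 ± 0.17, −0.02 ± 0.16 and −0.12 ± 0.08, with lower Dox+ arrays at 12 h and overlapping groups later. TGM1 overlapped at all 3 times, with differences of 0.15 ± 0.17, 0.00 ± 0.15 and −0.11 ± 0.07. Both lay below the median gene, so their probe sets gave dim signals in Dox+ and Dox− cells alike. EVPL, DSG3 and PKP1 also had mean levels below the median gene.

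DSP encodes desmoplakin, the plakin that binds keratin filaments to the desmosomal plaque. DSP read 12.73 and 12.56 in Dox+ cells against 12.48 and 12.05 in Dox− cells at 12 h. At 24 h the order was turned round, with 12.48 and 12.46 in Dox+ cells against 12.68 and 12.59 in Dox− cells. At 48 h it read 12.52, 12.43 and 12.51 in Dox+ cells against 12.06, 12.11 and 12.13 in Dox− cells. The groups stood apart at each time, by 0.38 ± 0.18, −0.16 ± 0.13 and 0.39 ± 0.06 (log2, SE). Between 12 h and 24 h the Dox+ mean changed by −0.17 and the Dox− mean by 0.38, and between 24 h and 48 h they changed by 0.01 and −0.54.

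Of the armadillo proteins and the desmosomal cadherin, PKP1 had groups apart at 24 h and the other 3 genes had lower Dox+ arrays at 12 h and overlapping groups later. JUP encodes plakoglobin, which joins desmosomal cadherins to desmoplakin. It read 10.04 and 9.84 in Dox+ cells against 10.49 and 10.42 in Dox− cells at 12 h, 10.51 and 10.46 against 10.31 and 10.77 at 24 h, and 10.00, 9.94 and 10.01 against 10.00, 10.09 and 10.06 at 48 h. Its Dox+ arrays were the lower ones at 12 h (difference −0.52 ± 0.15), and the groups overlapped at the later times (−0.06 ± 0.17 and −0.07 ± 0.06). PKP3 encodes a plakophilin of simple and stratified epithelia, and read 6.69 and 6.63 in Dox+ cells against 7.02 and 7.35 in Dox− cells at 12 h. Its groups overlapped at 24 h and 48 h, and its differences were −0.52 ± 0.17, 0.01 ± 0.14 and 0.12 ± 0.08. PKP1, the plakophilin of the upper epidermal layers, had differences of −0.10 ± 0.16, 0.38 ± 0.14 and 0.13 ± 0.07, and its groups stood apart at 24 h, with 5.65 and 5.40 in Dox+ against 5.15 and 5.14 in Dox− cells. DSG3, a cadherin of stratified epithelia, had differences of −0.28 ± 0.16, 0.08 ± 0.18 and −0.04 ± 0.09, and its groups overlapped at 24 h and 48 h. The second probe sets of DSG3, PKP1 and PKP3 had differences between −0.36 and 0.07, and that of PKP1 had −0.36 at 12 h and −0.17 at 24 h, where the first probe set had 0.38.

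**Figure D2:**
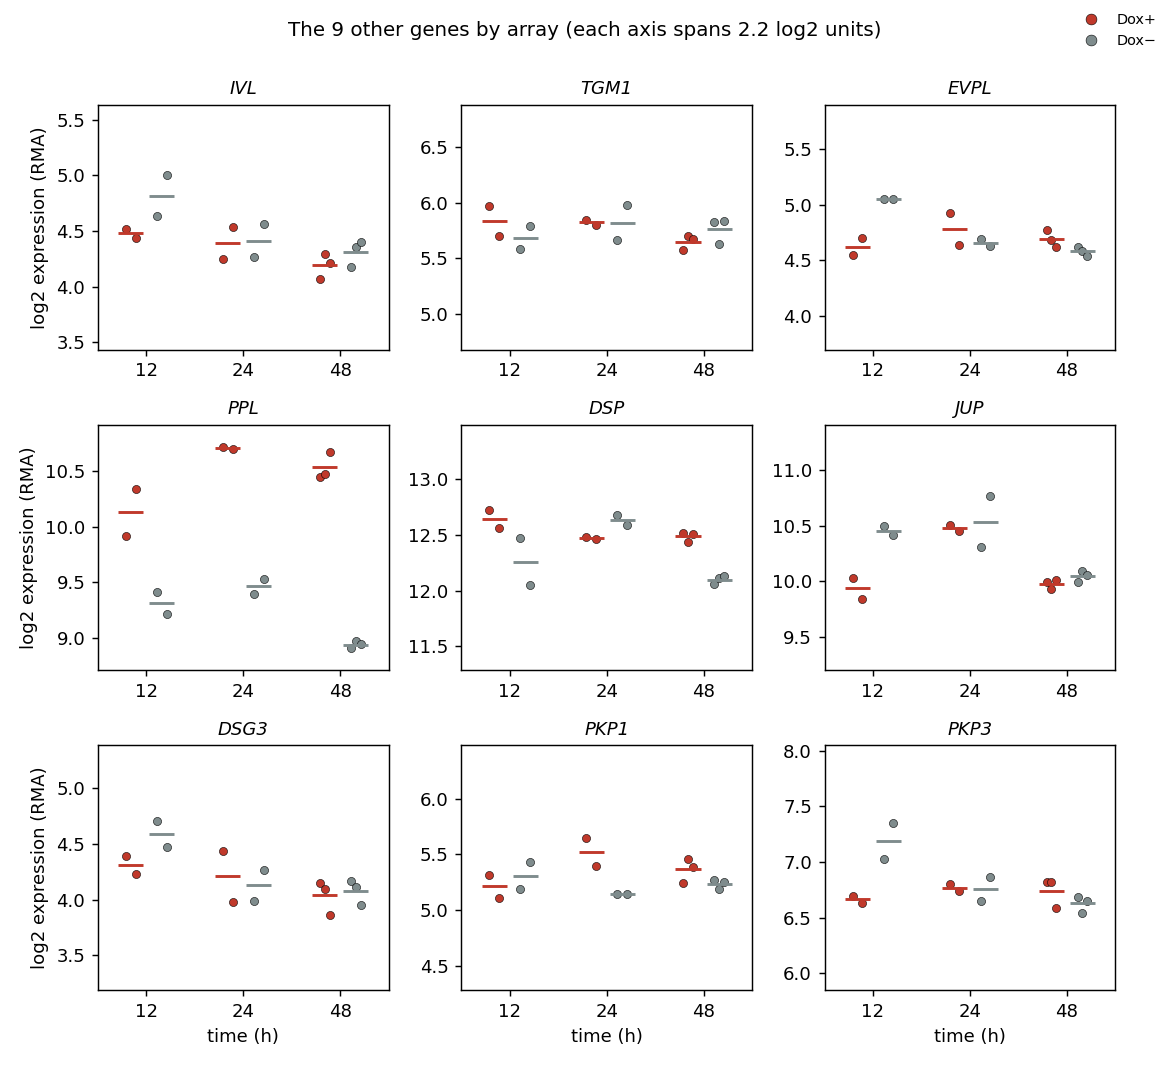
The 9 other genes by array. The y axis gives the deposited log2 RMA value, spanning 2.2 units in each panel, and the x axis the time in hours; points are arrays, red for Dox+ and grey for Dox−, and short lines are group means. PPL stands apart at every time, DSP changes side at 24 h, and IVL, EVPL, JUP, DSG3 and PKP3 have lower Dox+ arrays at 12 h.

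Counted over the 10 genes, the arrays of Dox+ and Dox− cells did not overlap for 8 at 12 h (3 with higher and 5 with lower Dox+ arrays), 4 at 24 h (3 and 1) and 3 at 48 h (3 and 0). Over all genes, arrays that did not overlap, in either direction, were 46.8%, 50.3% and 39.3% at these times. In limma's fit of all 19775 genes at an adjusted p of 0.05, the Dox+ level was higher for 1 of the 10 at 12 h (TRIM29), 2 at 24 h (TRIM29 and PPL) and 3 at 48 h (TRIM29, PPL and DSP), and lower for none. The shares of all genes called higher were 0.647%, 3.01% and 11.3%, and those called lower were 0.0202%, 2.81% and 12.9%. The call of TRIM29 at 12 h did not hold without either Dox− array of 12 h. Leaving one out leaves 1 array in that group, and most calls over all genes were then lost as well. Because the genes were selected on this contrast, nothing is read from the counts. The median difference of the 10 was −0.19, 0.05 and 0.11, beside −0.04, 0.02 and −0.02 over all genes. The 7 genes other than TRIM29, PPL and DSP had differences from −0.52 to 0.15 at 12 h, −0.06 to 0.38 at 24 h and −0.12 to 0.13 at 48 h.

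The 12 h values moved with the brightness of the signal. The Dox− arrays at 12 h had the smallest spread of log2 values over all probe sets of the Dox− arrays (SD 2.25 and 2.22, against 2.30 to 2.35 for the other 5). The dimmer 9887 genes had a median difference between Dox+ and Dox− cells of −0.13 at 12 h, and the brighter 9888 one of 0.07. After quantile normalization of the deposited values these were −0.06 and 0.01. IVL was then −0.27, EVPL −0.36 and DSG3 −0.20 at 12 h, while JUP (−0.57) and PKP3 (−0.61) kept their differences. The part of this spread in the 12 h values was not tested.

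**Figure D3:**
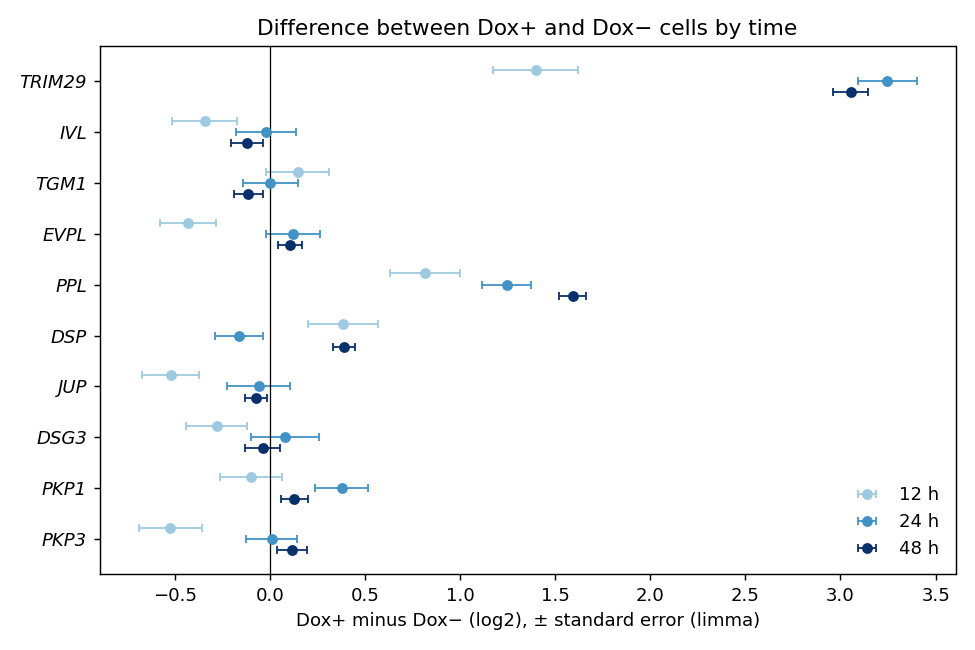
The difference between Dox+ and Dox− cells (x axis, log2, Dox+ minus Dox−) for the 10 genes (y axis), with 1 colour per time. Points are differences of group means and bars are limma's standard errors; TRIM29 lies at 1.40, 3.25 and 3.05, PPL at 0.81, 1.25 and 1.59, and the other 8 genes lie between −0.52 and 0.39.

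The levels in Dox− cells also changed with time. The 10 genes were selected on the levels of all arrays, those of Dox− cells included, so these changes too are a description with no test. PKP3 read 6.69, 6.54 and 6.65 at 48 h against 7.02 and 7.35 at 12 h in Dox− cells (difference −0.56 ± 0.13, log2, SE). EVPL read 4.62, 4.58 and 4.54 at 48 h against 5.05 and 5.05 at 12 h (−0.47 ± 0.09). For both genes the arrays of the 2 times did not overlap, and both had Dox+ arrays below the same Dox− arrays at 12 h. The differences between 48 h and 12 h were −0.51 for DSG3 and IVL, −0.41 for TRIM29 and JUP, −0.37 for PPL, −0.16 for DSP, −0.07 for PKP1 and 0.08 for TGM1. On the second probe set of PKP3 the Dox− arrays overlapped, with 4.47, 4.12 and 4.12 at 48 h against 4.23 and 4.31 at 12 h. Those of DSG3 overlapped too (3.69, 3.82 and 3.86 against 3.85 and 3.73), as did both other probe sets of TRIM29. The second probe set of PKP1 was lower at 48 h (4.22, 4.05 and 4.05 against 4.48 and 4.64). Between 24 h and 48 h PPL changed by −0.52 and JUP by −0.49. In limma's fit of the 7 Dox− arrays, 5 of the 10 (PKP3, EVPL, DSG3, IVL and PPL) were below an adjusted p of 0.05 with lower levels at 48 h than at 12 h, where 10.6% of all genes were called lower and 9.27% higher. Between 24 h and 12 h none was, where 1 gene of the 19775 was called (0.00506%), and between 48 h and 24 h only PPL was lower, where 0.455% of all genes were called lower and 0.693% higher. Nothing is read from these counts.

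The changes in Dox− cells also went with brightness and with single arrays. The dimmer genes had a median change of −0.18 between 12 h and 48 h in Dox− cells and the brighter ones of 0.12, which became −0.08 and −0.02 after quantile normalization. The change was then −0.69 for PKP3, −0.54 for PPL and JUP, −0.50 for TRIM29, −0.39 for IVL, −0.38 for DSG3 and −0.36 for EVPL. Without any 1 of the 3 Dox− arrays of 48 h none of the 10 was called, and without Dox− replicate 2 of 12 h 3 of them were. The calls over all genes fell as well, to 886, 469 and 469 of 19775 without Dox− replicate 1, 2 or 3 of 48 h, against 3927 with all arrays.

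**Figure D4:**
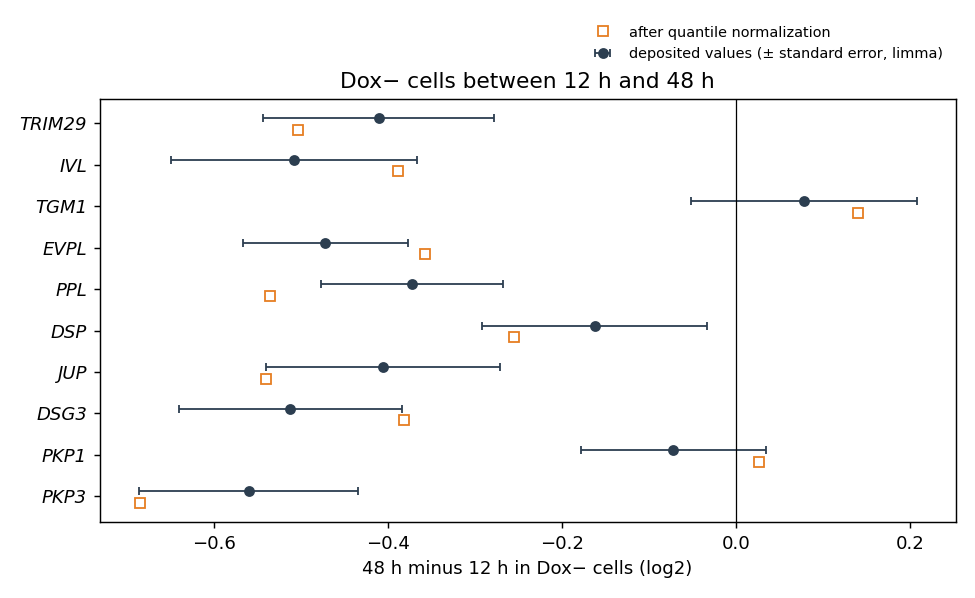
Change in Dox− cells between 12 h and 48 h (x axis, log2, 48 h minus 12 h) for the 10 genes (y axis). Filled points with bars are the deposited values with limma's standard error (n = 3 at 48 h and 2 at 12 h) and open squares are the values after quantile normalization; 9 of the 10 points lie below 0, at −0.56 for PKP3 and −0.07 for PKP1.

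The proteins around the 10 genes were counted over 7 lists, chosen with earlier results of these data known, so the counts are a description. The lists held 114 genes, of which 87 were measured. Only 26 of the 87 had a mean level at or above the median gene, and the probe sets of the others gave dim signals. At 12 h and 24 h 4 of the 87 were higher in Dox+ cells (4.6%), and at 48 h 18 (20.7%). Lower were 0, 1 and 1. Of all genes 0.647%, 3.01% and 11.3% were called higher at these times, so that at 24 h the listed genes lay near the share of all genes. The median difference of the 87 was −0.10, 0.06 and 0.04 over the times. Most calls of the 87 at 12 h were lost without either Dox− array of 12 h, as were most calls over all genes. At 48 h 2 of 10 other desmosome genes rose, 4 of 23 other cornified envelope precursors, 1 of 7 other plakins and filament genes, 1 of 7 other transglutaminases, 2 of 13 lipid envelope genes, 1 of 11 corneodesmosome proteases and inhibitors, and 7 of 16 epidermal differentiation regulators, of which 1 more fell. For the lists other than the regulators these were 1 to 4 genes each, to be read against the 11.3% of all genes.

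Among the envelope precursors the change was in few genes. CSTA, the gene of cystatin A, which inhibits cysteine proteases, read 12.4, 12.4 and 12.7 in Dox+ cells against 7.43, 7.48 and 7.61 in Dox− cells at 48 h. It rose by 2.00 at 12 h, by 3.96 at 24 h and by 4.98 at 48 h (adjusted p = 0.00271, 4.91e-06 and 4.07e-09 from limma). ANXA1, the membrane-binding annexin A1, read 8.53, 8.59 and 8.29 in Dox+ cells against 6.47, 6.63 and 6.24 in Dox− cells at 48 h. The groups of both genes stood far apart. ANXA1 rose by 2.02 at 48 h (adjusted p = 2.78e-06), and its second probe set by 0.43 (adjusted p = 0.00273 over all probe sets). CNFN, cornifelin, rose by 0.55 (adjusted p = 8.07e-04). LCE1E, a late envelope protein, rose by 0.31 (adjusted p = 0.0121) on a probe set that may also read near copies of its family. Its second probe set rose by 0.30 (adjusted p = 0.00701 over all probe sets). The other 19 precursors did not pass. Of all 23, 19 lay below the median gene, where a small difference may not be seen.

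The lipid layer of the envelope and the proteases that release its cells each had 1 gene with a clear difference. ABCA12, the lipid transporter of lamellar granules, read 5.88, 6.08 and 5.97 in Dox+ cells against 3.60, 3.34 and 3.81 in Dox− cells at 48 h. Its Dox+ arrays were all more than 2 units above its Dox− arrays there, and it rose by 2.39 ± 0.11 (adjusted p = 1.21e-06). CTSV, the lysosomal cathepsin V, rose by 0.66 (adjusted p = 2.14e-04), and ABHD5, a lipase cofactor, by 0.30 (adjusted p = 0.0284). TGM2, the tissue transglutaminase, rose by 0.29 (adjusted p = 0.0316), but its probe set with the largest interquartile range had −0.14 (adjusted p = 0.195).

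Of the other desmosome genes, PERP, a tetraspan protein of the desmosome and a target of p63, read 13.2, 13.2 and 13.1 in Dox+ cells against 12.7, 12.8 and 12.7 in Dox− cells at 48 h, a rise of 0.45 (adjusted p = 7.97e-04). DSG2, the desmoglein of simple epithelia, rose by 0.21 (adjusted p = 0.0439), and its second probe set had 0.20 (adjusted p = 0.131 over all probe sets). The desmocollins DSC1, DSC2 and DSC3 and the plakophilins PKP2 and PKP4 had differences from −0.15 to 0.15. EPPK1, which encodes the plakin epiplakin, read 9.32 and 9.0 in Dox+ cells against 7.85 and 7.52 in Dox− cells at 12 h. It rose by 1.47 at 12 h and by 0.47 at 48 h (adjusted p = 0.0196 and 0.00439), with 0.30 at 24 h (adjusted p = 0.332). Of its 4 other probe sets, none passed over all probe sets at 12 h (−0.09 to 1.39) and 1 did at 48 h. At 24 h VIM, the filament protein vimentin, was the 1 gene of the lists that fell, by 1.13 (adjusted p = 0.00205), and it was named after its value was seen.

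The regulators of epidermal differentiation held the most called genes of the 7 lists, which were chosen with earlier results of these data known. GRHL1, a grainyhead factor of desmosomal cadherin genes, rose by 1.31, 1.09 and 1.19 at the 3 times on its brighter probe set (adjusted p = 0.0162, 0.00646 and 2.25e-06). Its second probe set had 0.28 at 12 h, 0.38 at 24 h and 0.85 at 48 h (adjusted p = 0.624, 0.232 and 6.62e-05 when every probe set was tested), and thus passed at 48 h only. ZNF750, a zinc finger factor of terminal differentiation, rose by 1.01, 1.43 and 1.07 (adjusted p = 0.0341, 0.00170 and 0.00218). Its probe set gave dim signals, with 2.86 to 3.38 on the Dox− arrays and 3.79 to 4.63 on the Dox+ arrays. All of these lay below the median gene (6.49). The call of ZNF750 at 12 h did not hold when every probe set was tested on its own. GRHL1 and ZNF750 were among the 4 genes called at 12 h, with CSTA and EPPK1. MAF, a leucine zipper factor of late epidermal differentiation, rose by 1.24 at 24 h and 1.40 at 48 h (adjusted p = 0.00112 and 9.00e-07). At 48 h GRHL3, KLF4 and ELF3, factors of the epidermal barrier and of epithelial differentiation, rose by 0.72, 0.61 and 0.72 (adjusted p = 6.32e-04, 0.00292 and 2.49e-04). The second probe set of KLF4, the one with the larger interquartile range, had 0.32 and did not pass (adjusted p = 0.104 over all probe sets). GRHL2 had −0.19 (adjusted p = 0.160). The factor AP-2 alpha, TFAP2A, higher by 0.69 (adjusted p = 1.23e-04), and the repressor PRDM1, lower by 0.20 (adjusted p = 0.0476), completed the called genes of this list and were named after their values were seen.

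**Figure D5:**
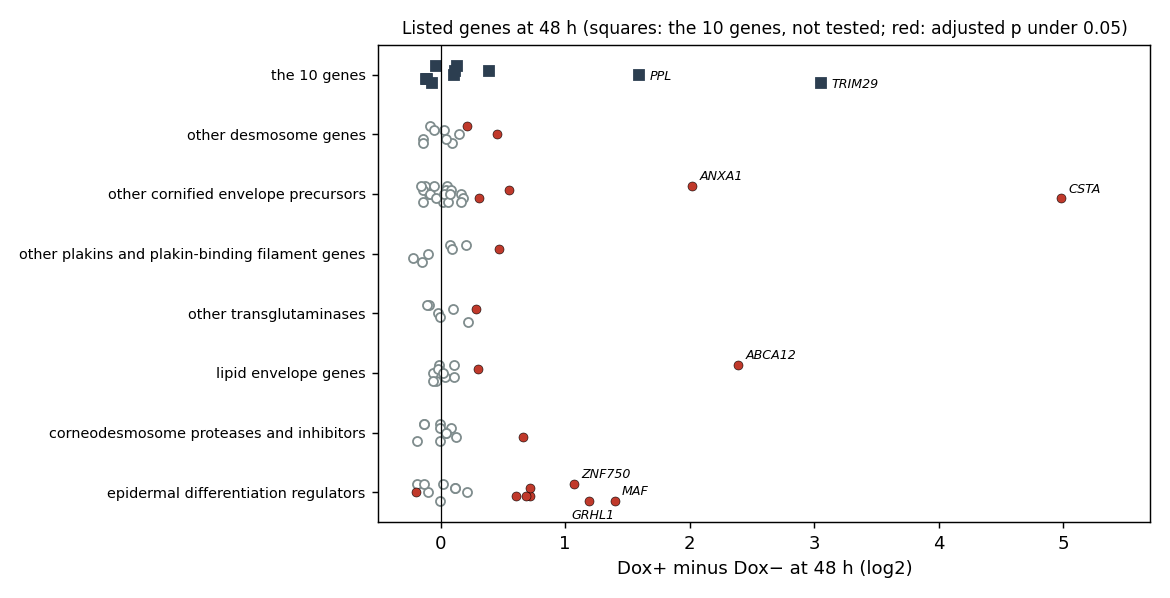
The difference between Dox+ and Dox− cells at 48 h (x axis, log2, Dox+ minus Dox−) for the 10 genes (dark squares, not tested) and for 7 lists of related genes (circles, 1 per gene, 1 row per list). Red circles had an adjusted p under 0.05 in limma and open circles did not; most genes lie near 0, and CSTA (4.98), ABCA12 (2.39) and ANXA1 (2.02) lie furthest from it.

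The difference between times was tested for the named genes outside the 10 as an interaction in 1 fit of all arrays, and a gene was counted where it passed with and without array weights. Over all genes this held for 1.05% between 48 h and 12 h and for 0.657% between 48 h and 24 h. CSTA had a difference larger by 2.98 at 48 h than at 12 h and by 1.02 than at 24 h (adjusted p = 4.40e-07 and 0.0130 without weights). ABCA12 (2.38 and 1.88) and ANXA1 (2.03 and 1.61) also passed in both contrasts, and MAF (0.95) against 12 h. For GRHL1, ZNF750 and GRHL3 the difference between times did not pass.

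Of 54 other TRIM genes, 1 was higher at 12 h and 2 at 24 h, and 11 were higher and 7 lower at 48 h (beside 11.3% and 12.9% of all genes, so that the lower ones were near the share of all genes). The largest difference at 48 h among those called was that of TRIM22, an interferon-inducible TRIM gene, at 1.35 (adjusted p = 9.90e-06), followed by TRIM45 (1.00, adjusted p = 7.00e-05), TRIM8 (0.75, adjusted p = 4.62e-04) and TRIM14 (−0.74, adjusted p = 1.27e-04). TRIM45 was also the gene called at 12 h, by 1.13 (adjusted p = 0.0323), while its second probe set had 0.35 (adjusted p = 0.449 over all probe sets). The genes whose values moved most like those of TRIM29 were found by the root mean square difference over the 14 arrays after each gene's own mean was taken off. They were GGT6 (0.313), RNF144B (0.392), CROT (0.394), CDKN1A (0.401) and ST6GALNAC2 (0.411 log2 units). CDKN1A is the cell cycle inhibitor p21, CROT a peroxisomal carnitine acyltransferase, and RNF144B a ubiquitin ligase. Of the other 9 genes PPL was nearest to TRIM29 by this measure (0.786, rank 95 of all genes). PKP1 (1.31, rank 2084) and DSP (1.33, rank 2566) came next. They were little nearer than TGM1 (1.41, rank 8950), whose groups overlapped at each time, so their ranks do not show that they moved with TRIM29.

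Of 6 keratinocyte markers 0 were called at 12 h, 1 at 24 h and 2 at 48 h, all of them higher. Of all genes 0.647%, 3.01% and 11.3% were called higher at these times. The median difference of the 6 markers at 48 h was 0.05. The mean level of the 6 keratinocyte markers was 5.79 to 5.83 on the Dox+ arrays and 5.60 to 5.71 on the Dox− arrays at 48 h, and 5.98 to 6.01 and 5.69 to 5.78 at 24 h. KRT15 and KRT5 were the 2 called, by 0.61 and 0.30 at 48 h (adjusted p = 8.86e-04 and 0.0308), and KRT1 (0.10), KRT10 (0.00), KRT14 (−0.07) and KRT16 (−0.12) did not pass. The mean level of the 11 hepatocyte markers was 11.8 to 11.9 on the Dox+ arrays and 12.1 to 12.2 on the Dox− arrays at 48 h. Of the 11, 7 were lower and 1 higher, beside 12.9% and 11.3% of all genes. The largest falls were those of APOA1 (−0.86) and TTR (−0.82), and SERPINA1 was the 1 that rose (0.54), all named after their values were seen. ALB, at a mean of 14.4 in Dox+ and in Dox− cells, had −0.01. It was the brightest of the 11, and whether its probe set could show a fall at that level was not tested. Whether the levels of these markers have a part in the differences of the 10 genes was not tested.

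Promoter sequence was at hand for 5 of the 10 genes, as the 250 bases before the start of each gene in RefSeq on GRCh38.p14, and for 14 of the 18 listed genes outside the 10 that were higher at 48 h. Windows were searched for the half-site that p73 and p63 bind, which reads alike on both strands, and for TATAAA on both strands. Of all 35116 RefSeq windows of this length, 5.57% held the half-site and 10.7% TATAAA. Some genes have several windows, and of the 27305 genes with a window 6.80% held the half-site in at least 1 of them. No overlap of the 2 elements occurred in the windows shown. The half-site was found in 4 of these 14 (ABCA12, ANXA1, GRHL3 and LCE1E), in 4 of the 54 other listed genes with a window (DSC3, KRT8, SPRR1B and SPRR4), and in 1 of the 5 with a window among the 10 (DSG3). DSP is shown as the 1 gene with a window among the 10 whose groups stood apart at 48 h, IVL and DSG3 as genes whose groups overlapped then, and ANXA1 and ABCA12 as the genes with the largest differences among those with a half-site; capitals mark a half-site or TATAAA.
DSP, chr6:7541421-7541670, + strand: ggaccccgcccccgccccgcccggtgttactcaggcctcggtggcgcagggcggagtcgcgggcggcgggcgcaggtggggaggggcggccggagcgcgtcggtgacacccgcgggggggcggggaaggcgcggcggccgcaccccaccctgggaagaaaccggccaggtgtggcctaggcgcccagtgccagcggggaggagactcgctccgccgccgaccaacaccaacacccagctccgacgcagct
IVL, chr1:152908296-152908545, + strand: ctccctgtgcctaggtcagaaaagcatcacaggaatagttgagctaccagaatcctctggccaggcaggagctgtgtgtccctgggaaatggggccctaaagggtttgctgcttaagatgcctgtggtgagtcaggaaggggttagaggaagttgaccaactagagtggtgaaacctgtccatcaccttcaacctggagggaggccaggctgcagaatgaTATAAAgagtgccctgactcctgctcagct
DSG3, chr18:31447491-31447740, + strand: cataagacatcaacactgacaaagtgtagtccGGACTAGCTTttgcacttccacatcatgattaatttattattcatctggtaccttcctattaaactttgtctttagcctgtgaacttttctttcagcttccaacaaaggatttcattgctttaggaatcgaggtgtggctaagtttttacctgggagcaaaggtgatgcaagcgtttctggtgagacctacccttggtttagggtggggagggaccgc
ANXA1, chr9:73151615-73151864, + strand: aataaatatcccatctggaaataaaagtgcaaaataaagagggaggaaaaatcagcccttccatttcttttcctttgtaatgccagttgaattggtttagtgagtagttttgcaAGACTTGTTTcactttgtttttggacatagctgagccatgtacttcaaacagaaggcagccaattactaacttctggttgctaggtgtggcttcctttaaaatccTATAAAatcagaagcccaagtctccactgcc
ABCA12, chr2:215138627-215138876, − strand: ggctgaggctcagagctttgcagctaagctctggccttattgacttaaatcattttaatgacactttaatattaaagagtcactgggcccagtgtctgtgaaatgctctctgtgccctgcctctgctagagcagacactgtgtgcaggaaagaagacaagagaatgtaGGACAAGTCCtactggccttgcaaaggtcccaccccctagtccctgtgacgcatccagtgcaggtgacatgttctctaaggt
The DSP window held neither element. IVL held TATAAA 30 bases before the start and no half-site. DSG3, with overlapping groups at 24 h and 48 h, held a half-site 218 bases before the start. ANXA1 held a half-site 136 and TATAAA 31 bases before the start, and ABCA12 a half-site 82 bases before the start of the window shown, whereas its other window held neither element. A match in these letters is a description and shows no binding.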

How the data were processed

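Total RNA from 14 cultures was hybridised by the authors to Affymetrix Human Genome U133 Plus 2.0 arrays, 1 per culture. The deposited values are log2 expression values per probe set, which the authors computed with RMA (a background correction, a quantile normalization and a summary per probe set); R 3.5.1 is given in the submitters' processing notes, and BRB-ArrayTools in the study's methods, which also state that outlier arrays were excluded. The labels name DMEM as the medium. No build is named for the arrays, so genes have no coordinates here. The values were used as deposited. Of 54675 probe sets, 41091 named 1 gene in the platform annotation, 1801 named several and 11721 had no name; 41037 of those with 1 gene were matched to a current symbol by Entrez identifier. The number of arrays limits the precision.

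The members and lists were chosen with earlier results of these data known. The fits used lmFit and eBayes of limma 3.58.1 under R 4.3.3, two-sided, for Dox+ against Dox− within a time and for Dox− arrays between times. The second was planned as a test, but the 10 genes were selected on the levels of these arrays too, and both are given for them as a description. Adjustment was by Benjamini-Hochberg across the 19775 genes, and calls were made at 0.05. The p-values and each SE rest on the spread between these cultures, which eBayes draws towards that of all genes. Genes named outside the 10 were at most 4 per list with the largest difference at 48 h among those called, with KLF4, GRHL1, GRHL2, GRHL3 and ZNF750 always; genes outside the rule are said to be so. Listed genes that no probe set names alone were not analysed here. The fit was checked on data drawn with known changes. No pair of arrays held identical values. Alternatives were a common fit of the 14 arrays, leaving out dim genes (those with a mean below the median gene's), and choosing probe sets by interquartile range. Others were testing each probe set separately, leaving out _x_at probe sets, a further quantile normalization, and the trend and robust options of eBayes. The last were a block for the replicate number, an ordinary pooled-variance t-test per gene, a 2-fold minimum, and leaving out each array. The data.table package (version 1.17.8) read the tables; promoters and figures were made in Python 3.11.15 with pandas (2.3.3), numpy (2.4.6) and matplotlib (3.10.9).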

Additional observations from a re-analysis of the deposited data

Results flagged for a closer look

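Several genes outside the 10 had a difference between Dox+ and Dox− cells that changed with time in the interaction test, with and without array weights. Between 48 h and 12 h the difference changed by 2.98 (log2) for CSTA, 2.38 for ABCA12, 2.03 for ANXA1, 1.21 for TRIM22, 0.95 for MAF and −0.98 for TRIM14. Between 48 h and 24 h it changed by 1.88 for ABCA12, 1.61 for ANXA1 and 1.02 for CSTA.

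For 4 genes all Dox+ arrays lay on one side of the Dox− arrays at one time and on the other side at another. These were DSP (0.38 at 12 h, −0.16 at 24 h and 0.39 at 48 h), DSG2 (0.21, −0.19 and 0.21), LCE1E (−0.16 at 12 h and 0.31 at 48 h) and TRIM14 (0.23, −0.33 and −0.74). These values are from the brightest probe set of each gene. The second brightest had −0.15, −0.62 and 0.20 for DSG2 and −0.12, 0.17 and −0.41 for TRIM14, so the signs at 12 h differed. For LCE1E it had −0.12 at 12 h and 0.30 at 48 h. For DSP the difference between times was not tested, because the 10 genes were selected on these values. For DSG2 and LCE1E the interaction did not pass in either contrast, and for TRIM14 it passed between 48 h and 12 h. With 2 arrays on each side, 46.8% of all genes had arrays that did not overlap at 12 h and 50.3% at 24 h.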

How the results depend on the processing

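Counts of called genes moved with the settings, mostly at 12 h and 24 h. The 10 genes, 1 of them higher at 12 h, had 2 with all 14 arrays in 1 fit, where the calls over all genes rose from 132 to 1683. They had 0 with dim genes left out (5 of the 10 tested), the probe set chosen by interquartile range, or each probe set tested separately. The count was also 0 with quantile normalization or the ordinary t-test. The ordinary t-test after adjustment also gave 0 of the 10 at 24 h, where 2 were higher. It called 0 of all 19775 genes at 12 h and at 24 h. For the 87 listed genes, all 14 arrays in 1 fit gave 7 higher at 12 h (4 in the fit per time), 4 lower (0), 7 higher at 24 h (4), 2 lower (1) and 0 lower at 48 h (1). Testing each probe set separately gave 2 higher at 12 h and 0 lower at 48 h. The ordinary t-test gave 0 higher at 12 h and 24 h, 0 lower at 24 h and 48 h, and 11 higher at 48 h (18). Trend and robust options gave 8 higher and 3 lower at 24 h and 2 lower at 48 h. Dim genes left out (26 of the 87 tested) gave 3 lower at 24 h, and choosing probe sets by interquartile range 3 lower at 24 h and 0 at 48 h. Among Dox− arrays between 12 h and 48 h, where the counts are a description, the 5 called became 0 with a 2-fold minimum. With dim genes left out only 5 of the 10 were tested, without EVPL, DSG3 and IVL, and 3 of those 5 were called. Between 24 h and 48 h the 1 called became 3 with all 14 arrays, 2 with trend and robust options, and 0 with probe sets chosen by interquartile range, with each tested separately or with a 2-fold minimum. The cause of these moves was not tested. The rise of TGM2 at 48 h turned to −0.14 on its probe set of largest interquartile range.

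Leaving out 1 array leaves 1 in its group at 12 h and 24 h. Of the 10, the call at 12 h did not hold without either Dox− array, and those at 24 h held. For the 87, most calls at 12 h were lost without either Dox− array, as were most over all genes, and those at 24 h held. Leaving out 1 array at 48 h gave 3 of the 10 higher each time, and 15 to 18 of the 87 higher and 0 to 2 lower. Among the Dox− arrays, leaving out 1 gave 0 to 7 of the 10 between 12 h and 48 h, 0 to 2 between 12 h and 24 h, and 0 to 2 between 24 h and 48 h. Of the differences of the 10 genes under all alternatives, 360 stayed within 1 SD of the value given and 5 moved by more, of which 3 were PKP1 on its second probe set. PPL at 24 h was 1.37 and DSP at 24 h −0.09 after quantile normalization. Of the tests of the named genes outside the 10, 848 kept their direction and side of the threshold, 54 lost the call, 16 gained one and 1 reversed.

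Same-numbered Dox+ and Dox− arrays had correlated deviations of 0.255 at 12 h, −0.110 at 24 h, and 0.109, 0.0892 and 0.102 at 48 h, where each of the 3 Dox+ arrays correlated best with its own number. This last is a hint of pairing from the data. The labels tie the numbers to no shared culture or day, and not every correlation was over 0.1, so the samples were taken to share only a number. With the replicate block 385 genes were called higher and 84 lower at 12 h, against 128 and 4 without it, 641 and 561 at 24 h and 2223 and 2496 at 48 h, and 1 of the 87 was lower at 12 h. Crossing the numbers at 24 h, tried after the data were seen, gave 778 higher and 815 lower, and 3 of the 87 lower.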
